A study of Mus musculus with 12 samples.

Results

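The subunits of the GABA-A receptor and of the ionotropic glutamate receptors were examined in the hypothalamus of mouse pups. All rows of the deposited count table whose symbol is that of a GABA-A subunit (Gabra, Gabrb, Gabrg, Gabrr, Gabrd, Gabre, Gabrp, Gabrq), an AMPA (Gria), kainate (Grik) or NMDA (Grin) receptor subunit, or a delta receptor (Grid) were taken. The rule found 37 of 43280 gene rows, 19 for GABA-A and 18 for glutamate receptors. The 12 male C57/Bl6 pups were killed on postnatal day 6. The 6 MMS pups (modified maternal separation) had been kept apart from the dam for a short period on successive days, kept warm and repeatedly laid on their backs, and tissue was taken right after the last session. Males of a litter were divided between MMS and the 6 control pups, and the labels do not give the litter of a library, so p-values treat the pups as independent. The 3' mRNA libraries held 3218777 to 6560620 counts each.

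GABA-A receptors are chloride channels built from several subunits around a pore, most often alpha, beta and gamma subunits together. In the young brain the chloride gradient makes GABA less inhibitory than in the adult, and the alpha subunits made by many neurons change as they mature. The ionotropic glutamate receptors are cation channels: AMPA receptors carry most fast excitation, kainate receptors tune transmitter release and excitability, and NMDA receptors pass calcium when glutamate and depolarisation coincide. The delta receptors, though of the same family, act mainly as adhesion partners of secreted cerebellins. In many brain regions immature neurons use NMDA receptors with Grin2b, Grin2d and Grin3a, and Grin2a appears later.

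Promoter sequence is shown for 3 subunits. Gabra3 is shown as the most abundant GABA-A subunit, and because its windows alone among the members lack CG. Gabra4 and Gabrb1 are shown as neighbours whose 5' ends overlap on opposite strands, with RefSeq starts 387 bases apart. The windows are from RefSeq (GRCm38.p6, the assembly also called mm10) and run from 250 bases before the start to 50 after it. GENCODE M21 starts Gabra3 (72656848) and Gabrb1 (71658113) downstream of the windows printed, so their start sites differ between the annotations. The windows are written 5' to 3' on the strand of the gene, with CG dinucleotides, the main targets of DNA methylation, in capitals.
Gabra3, chrX:72656870-72657169, minus strand: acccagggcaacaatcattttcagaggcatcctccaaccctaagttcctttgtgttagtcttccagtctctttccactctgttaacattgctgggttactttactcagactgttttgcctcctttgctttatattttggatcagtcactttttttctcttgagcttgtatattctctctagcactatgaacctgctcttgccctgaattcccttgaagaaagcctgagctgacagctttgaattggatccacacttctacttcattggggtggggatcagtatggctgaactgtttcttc
Gabra4, chr5:71658259-71658558, minus strand: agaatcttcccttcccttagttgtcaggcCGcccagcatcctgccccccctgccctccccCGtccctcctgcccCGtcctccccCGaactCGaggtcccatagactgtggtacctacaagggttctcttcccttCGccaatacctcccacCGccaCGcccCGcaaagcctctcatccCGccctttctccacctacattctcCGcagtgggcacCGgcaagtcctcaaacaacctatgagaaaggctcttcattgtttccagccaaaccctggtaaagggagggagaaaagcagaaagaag
Gabrb1, chr5:71657671-71657970, plus strand: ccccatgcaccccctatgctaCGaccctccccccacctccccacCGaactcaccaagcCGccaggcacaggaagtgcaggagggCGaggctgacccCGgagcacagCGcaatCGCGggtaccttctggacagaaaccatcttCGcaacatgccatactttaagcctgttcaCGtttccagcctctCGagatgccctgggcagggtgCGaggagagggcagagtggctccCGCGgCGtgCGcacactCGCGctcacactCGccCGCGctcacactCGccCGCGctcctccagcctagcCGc
CG occurred 0 times in this window of Gabra3, 12 times in that of Gabra4 and 25 times in that of Gabrb1. Another RefSeq window of Gabrb1, not printed, held 9. RefSeq windows were found for 25 of the members, 29 windows in all, with a median of 12 CG, against a median of 7 over all 32851 windows. Only the 2 overlapping windows of Gabra3 held no CG at all, where 5.43% of all windows lack one. TATAAA, searched on both strands, lay in both Gabra3 windows and in 13.6% of all windows.

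The label was checked against markers. All 10 hypothalamic markers, among them Oxt, Avp and Pmch, had counts and together measured 758 to 1667 CPM in controls (CPM, the count of a gene scaled to the same library total in every library). Thalamic markers, most of them counts of Calb2, measured about as much in controls (777 to 1529 CPM). The 6 telencephalic markers together measured 31.5 to 62.9 CPM over all libraries. The cerebellar list measured 63.9 to 227 CPM in controls, most of it Zic1, while Atoh1 had 0 counts. MMS 2 and MMS 4 stood apart on the first principal component of all tested genes (57.8 and 46.3, against -14.4 to -3.04 in the other 10 libraries). Of the neuronal markers, Tubb3 was low in them (1280.3 and 1307 CPM, against 2069 to 3461 CPM), while the sum of the other 5 (3712 and 3767 CPM) lay within the 3331 to 3869 CPM of the other libraries. Their ependymal markers were 14.5 and 30.7 CPM, against 63.2 to 155 CPM, and their astrocyte markers 1176 and 1178 CPM, against 855 to 1124 CPM. In whole tissue, fewer cells of a type and less RNA per cell cannot be told apart, and the part of these differences in the results below was not tested. Values without both libraries stand beside the main ones, and the plot of fold changes gives both for each subunit shown.

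The members together made up 0.266% to 0.339% of the counts of a library. Because 3' libraries read each transcript once, near its poly(A) tail, CPM was compared between genes without dividing by length. A gene whose 3' end is annotated in the wrong place would still read low. The plot of levels shows the range, from Gria2 at 328 CPM to Gabrr3 with 0 counts. Of the 37 members, 11 had a mean over 100 CPM, and the 5 highest (Gria2, Gabra3, Grin3a, Gria1 and Grin2b) held 44.2% of the summed level. Summed over the GABA-A subunits, the control libraries stood at 1209 ± 50.5 CPM and the MMS libraries at 1208 ± 26.2 CPM (SD, n = 6 for each here and below). Glutamate receptor subunits summed to 1625 ± 90.4 and 1705 ± 169.7 CPM. The GABA-A to glutamate ratio of counts lay between 0.705 and 0.803 in controls and between 0.601 and 0.767 in MMS pups, with the lowest value in MMS 2.

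**Figure D1:**
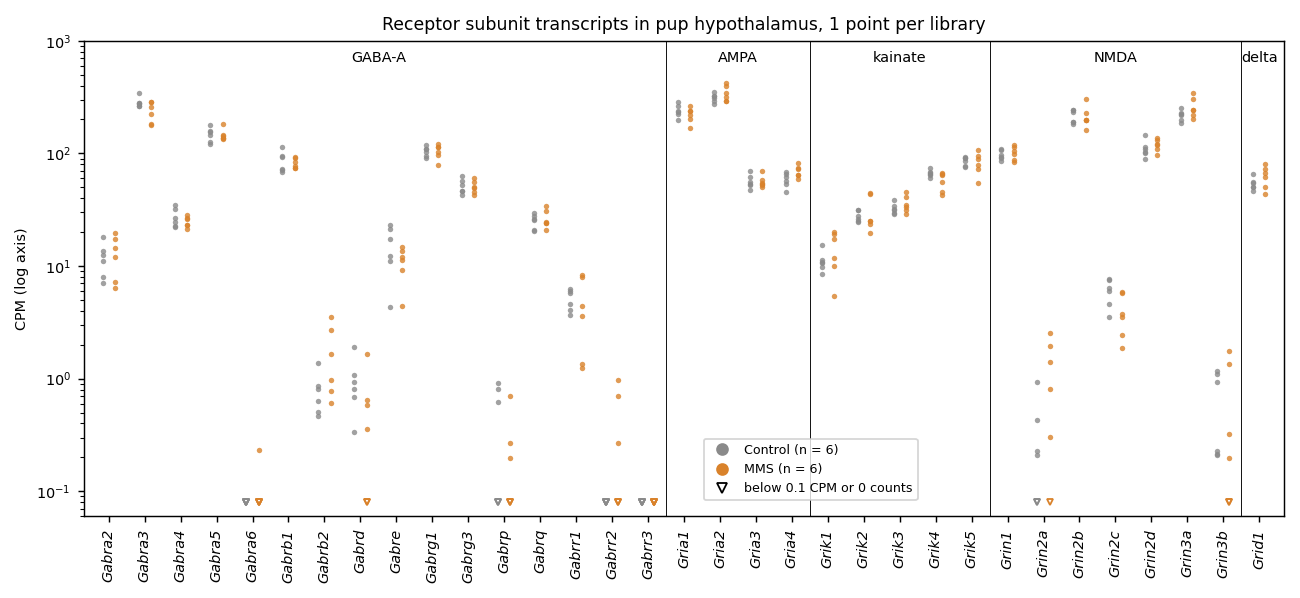
Level of receptor subunits in CPM on a log axis, 1 point per library, for the 33 shown, with 6 control and 6 MMS libraries side by side and open triangles for values under 0.1 CPM or 0 counts. Levels span from Gria2 at a mean of 328 CPM to Gabrr3 at 0, and the control and MMS points overlap for all tested subunits.

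Among the alpha subunits, which shape the GABA response and set sensitivity to benzodiazepines, Gabra3 was the most abundant in all controls. Its share of the Gabra counts of a library was 47.4% to 52.6% for controls and 32.9% to 52.0% for MMS pups. Gabra5, the subunit of many extrasynaptic receptors, held 25.8% ± 2.34 in controls and 26.8% ± 3.73 in MMS. Gabra4 measured 27.2 ± 5.11 CPM and Gabra2 11.7 ± 4.05 CPM in controls, so that both lay well under Gabra3 and Gabra5 in every library. Gabra6, a subunit of cerebellar granule cells, had 1 count over all 12 libraries.

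Of the beta subunits, needed for assembly and for the GABA site, Gabrb1 measured 85.2 ± 17.6 CPM in controls and 82.1 ± 8.29 in MMS. Gabrb2, a major beta subunit of the adult brain, measured 0.463 to 1.38 CPM in controls. Its values were 2.69 and 3.55 CPM in MMS 2 and MMS 4 and 0.606 to 1.64 CPM in the other MMS libraries, from 2 to 20 counts per library, too few to pass the count filter. Its share of the Gabrb counts did not exceed 1.43% in any library.

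Gamma subunits place the receptor at the synapse. In controls Gabrg1 measured 104 ± 10.3 CPM and Gabrg3 51.2 ± 7.50 CPM. Of the remaining classes, Gabrq (theta, 25.1 ± 3.75 CPM) and Gabre (epsilon, 14.9 ± 7.02 CPM), both known from the hypothalamus and monoaminergic nuclei, were the most abundant. Gabrq measured 20.9, 25.8, 29.7, 20.4, 27.8 and 26.3 CPM in controls and 20.8, 24.4, 23.9, 24.1, 33.9 and 30.6 CPM in MMS pups, so that MMS 5 and MMS 6 lay above all controls. Among the tested subunits shown, Gabre had the highest coefficient of variation in controls (47.1%), from 4.35 CPM in Control 4 to 23.0 CPM in Control 5. Gabrr1, a rho subunit best known from the retina, measured 3.66, 6.25, 4.03, 5.96, 5.71 and 4.63 CPM in controls and 4.45, 1.34, 3.63, 1.24, 8.24 and 8.05 CPM in MMS pups. MMS 2 and MMS 4 were lowest and MMS 5 and MMS 6 highest. Gabrd (delta) had 42 counts in all, Gabrp (pi) 16, Gabrr2 7 and Gabrr3 0, which allows up to 0.0544 CPM (3 counts of 55184254, counting error only).

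**Figure D2:**
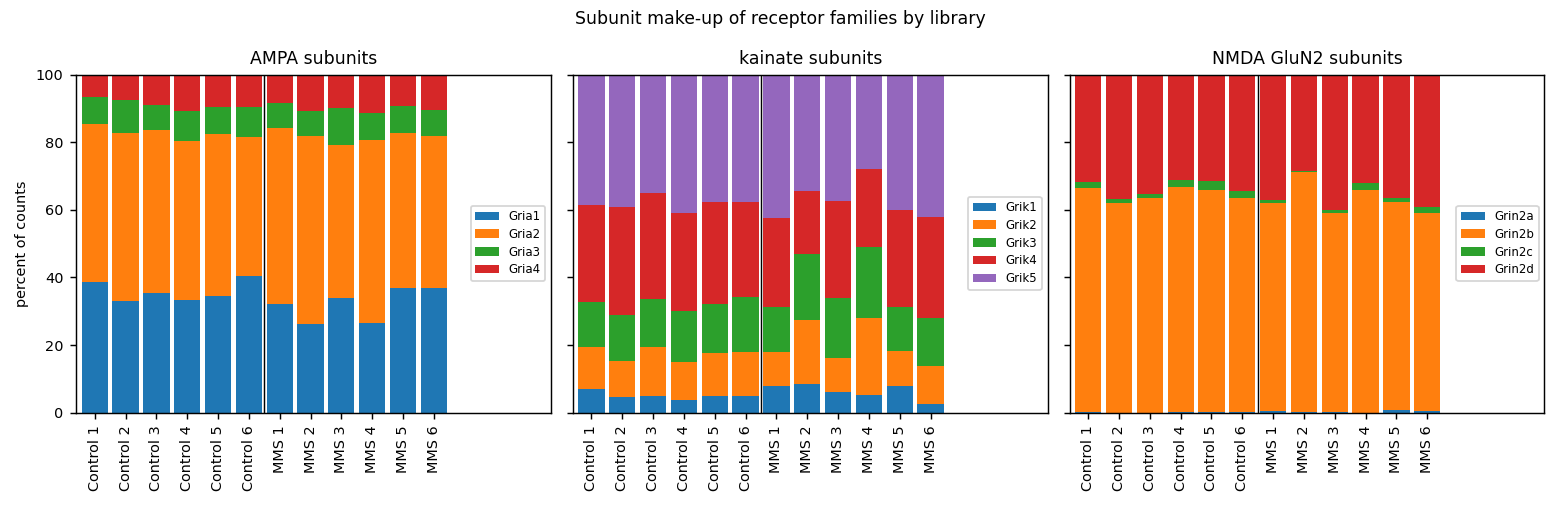
Stacked bars of the percent of counts that each subunit takes of its family in every library, for AMPA, kainate and NMDA GluN2 subunits, with controls left of the line. Grik2 takes 18.9% and 22.8% of the kainate counts in MMS 2 and MMS 4 and at most 14.4% in the other libraries, while Grin2a is barely visible in all 12.

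Many GABA-A genes lie in clusters. On chromosome 5 (70751047-72149037) Gabrg1 and Gabrb1 were high and Gabra4 and Gabra2 low. The neighbours with overlapping 5' ends, whose promoters are printed above, measured 25.9 CPM (Gabra4) and 83.6 CPM (Gabrb1) over all libraries. Control 1 and Control 4 were the 2 highest libraries for both, at 31.9 and 34.8 CPM for Gabra4 and at 113 and 94.9 CPM for Gabrb1. For Gabrb1, MMS 1 was close behind at 93.2 CPM. The other genes of this cluster had other libraries highest, MMS 5 and Control 6 for Gabrg1 and MMS 1 and Control 2 for Gabra2. Whether the neighbours vary together was not tested. On chromosome X (72255999-72842602) Gabre, Gabra3 and Gabrq summed to 326 ± 37.8 CPM in controls and 273 ± 55.7 in MMS, with MMS 2 and MMS 4 lowest (211 and 212 CPM).

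AMPA receptor transcripts came mostly from Gria2, whose edited form keeps calcium out of the channel, and Gria1, which serves activity-dependent insertion at synapses. Gria2 measured 322, 351, 308, 276, 326 and 292 CPM in controls 1 to 6 and 393, 423, 294, 343, 292 and 318 CPM in MMS 1 to 6. Gria1 measured 241 ± 31.6 CPM and, in MMS pups, 221 ± 32.9 CPM. For Gria2, MMS 1 and MMS 2 lay above all controls and the other 4 within them. The ratio of Gria2 to Gria1 was 1.02 to 1.51 in controls, 2.12 and 2.05 in MMS 2 and MMS 4, and 1.22 to 1.64 in the other MMS libraries. Gria4 (58.6 ± 8.67 CPM in controls) and Gria3 (56.9 ± 7.87 CPM) were close to each other.

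NMDA receptors need Grin1, which lay between 85.7 and 109 CPM in controls and between 84.2 and 119 CPM in the MMS group. Of the GluN2 counts in controls, Grin2b held 64.6% ± 1.89 and Grin2d 33.5% ± 2.36. Grin2c held 1.84% ± 0.590 and Grin2a 0.0962% ± 0.120, and Grin2a had 39 counts over all libraries. The values of Grin2a were 0 to 0.926 CPM in controls and 0 to 2.55 CPM in MMS pups, with the highest in MMS 5. Grin3a, a subunit that lowers calcium entry, was more abundant than Grin1, at 217 ± 23.0 CPM in controls. Grin3b, its relative of motor neurons, had 37 counts, and its 3' end overlaps Tmem259 on the opposite strand, which had 5164 counts. The 3' ends of Gabra5 (with Gm9962, 228 counts), Grin1 (Grin1os, 0 counts) and Grin2d (Gm45441, not among the counted genes) also overlap genes on the opposite strand. The sources used here do not say whether strand was used in counting, so the counts of such pairs cannot be told apart.

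Among kainate receptor subunits, the auxiliary high-affinity subunits Grik5 (85.3 ± 7.29 CPM in controls) and Grik4 (66.7 ± 4.51 CPM) were above the subunits that form channels on their own, Grik3 (32.3 ± 3.52 CPM), Grik2 (27.8 ± 3.14 CPM) and Grik1 (11.1 ± 2.38 CPM). The delta receptor Grid1 measured 53.7 ± 6.45 CPM in controls. Grik5 measured 85.5, 90.8, 76.8, 92.6, 76.1 and 90.4 CPM in controls 1 to 6 and 107, 79.5, 72.7, 54.8, 90.0 and 94.0 CPM in MMS 1 to 6, so that the MMS values lay on both sides of the controls. Neighbours in these orders were not tested against each other, and the SDs of Grik3 and Grik2, and of Gria4 and Gria3, overlap.

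The comparison of MMS with control pups asked whether the subunits differed between the groups. None of the 29 members that passed the count filter was past an adjusted p of 0.05 in edgeR, where 0.0% of all 13104 genes tested were. In DESeq2 0 members were, against 0.0255% of the genes it tested. In limma-voom 0 members were, and the share over all genes was not counted for that fit. At an unadjusted p under 0.05 there were 3 (10.3%), against 9.08% of all genes. They were 2 higher in MMS (4.68% of all genes) and 1 lower (4.4%). Of the 29, 15 had a higher mean in MMS and 14 a lower one, where 50.1% of all genes were higher, and their median log2 fold change was 0.0038, against 0.0009 over all genes. Control and MMS values did not separate fully for any of the 29 (0 members, against 0.389% of all genes). The 1 lower member at an unadjusted p under 0.05 was Gabra3. Without MMS 2 and MMS 4, 0 of the 29 had an unadjusted p under 0.05, against 5.03% of all genes, and 0 an adjusted one, against 0.0373%. In that fit 16 were higher in MMS, where 50.1% of all genes were, and the median was 0.0098. At an unadjusted p under 0.05 there was 1 without MMS 2 (5.27% of all genes), 6 without MMS 1 (11.4%), 6 without MMS 5 (13.6%) and 7 without MMS 6 (11.8%), so the share over all genes moved in the same direction.

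**Figure D3:**
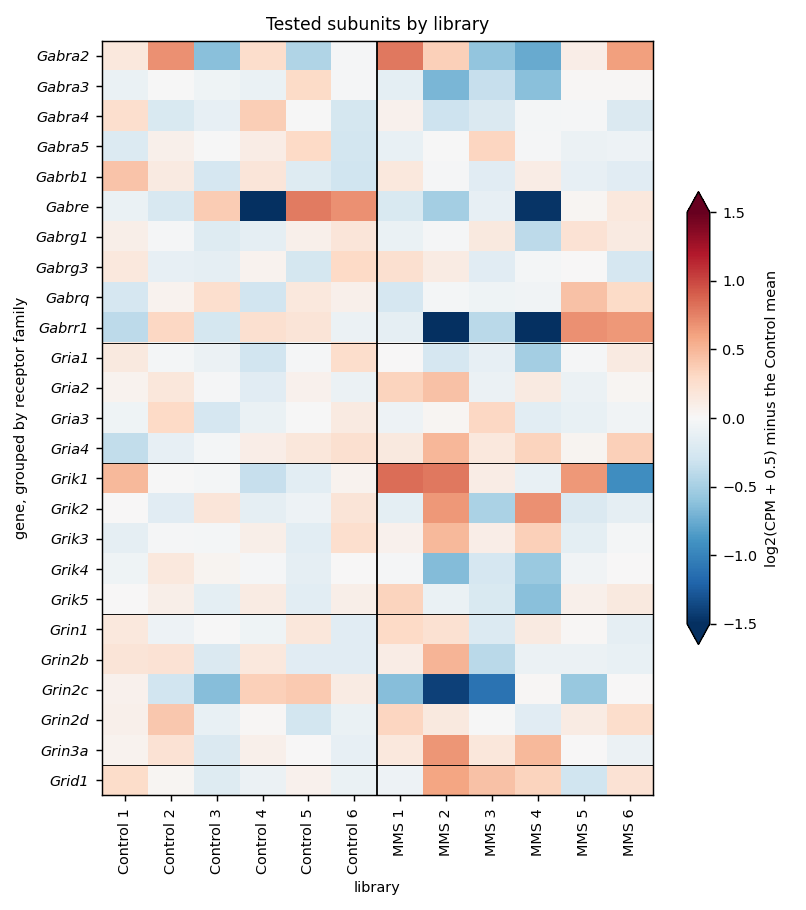
The 25 tested subunits shown (rows, by family) in each library (columns, controls left of the line), coloured by log2(CPM + 0.5) minus the control mean, with the scale ending at 1.5 in either direction. In the row of Grik2, MMS 2 and MMS 4 are the reddest cells (43.5 and 44.7 CPM), and in the row of Gabrr1 they are the bluest.

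Gabra3 (chromosome X, 72432681-72656848, minus strand) measured 266, 282, 272, 266, 346 and 281 CPM in controls 1 to 6 and 256, 177, 223, 184, 288 and 287 CPM in MMS 1 to 6. Of the MMS libraries 4 lay below all controls, with MMS 2 and MMS 4 lowest, and MMS 5 and MMS 6 lay within the controls. The log2 fold change, MMS relative to control, was -0.28 (SE 0.12, 95% interval -0.54 to -0.02; edgeR adjusted p = 0.543). Without MMS 2 and MMS 4 it was -0.11 (edgeR adjusted p = 0.964).

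**Figure D4:**
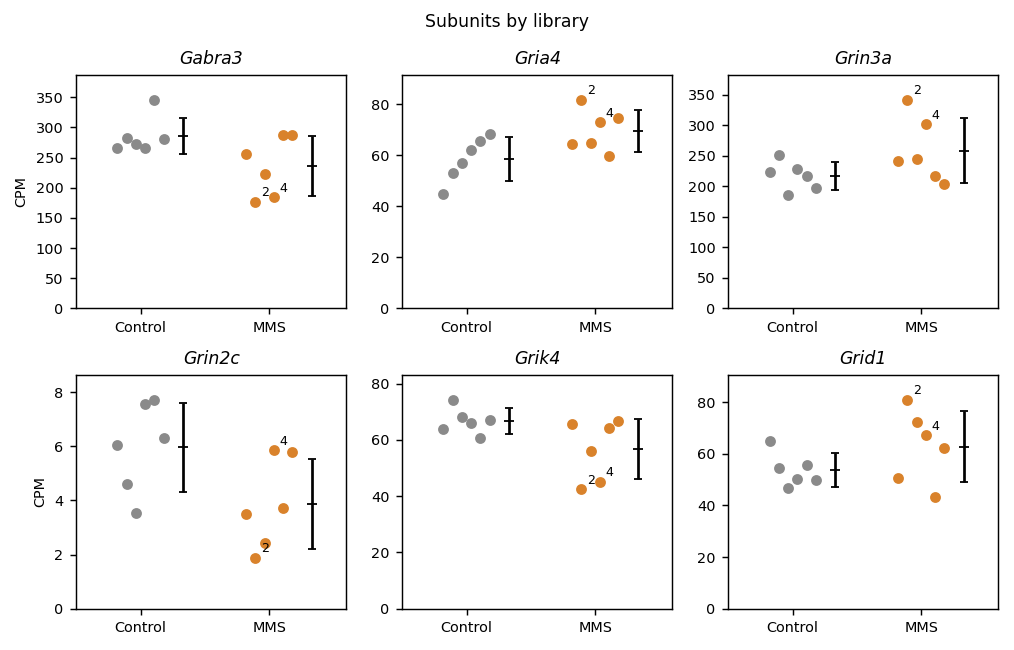
CPM of 6 tested subunits, Gabra3 and the glutamate receptor subunits with the smallest p-values, 1 point per library on linear axes from 0, with the mean and SD of each group as a black bar and MMS 2 and MMS 4 marked by number. In Gabra3 (177 and 184 CPM) and Grik4 (42.4 and 45.2 CPM) the marked points lie lowest, and in Grin3a (342 and 302 CPM) highest.

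The next smallest p-values were those of 5 glutamate receptor subunits, and none had an unadjusted p under 0.05. Gria4, which forms fast AMPA receptors (chromosome 9, 4417896-4796234, minus strand), measured 45.0, 53.3, 57.0, 62.3, 65.6 and 68.5 CPM in controls and 64.4, 81.9, 64.8, 73.1, 59.6 and 74.7 CPM in MMS pups. The 3 libraries above all controls were MMS 2, 4 and 6. It had a log2 fold change of 0.25 (edgeR, SE 0.12, with adjusted p = 0.551), and 0.17 without MMS 2 and MMS 4. Grin3a (chromosome 4, 49661611-49845744, minus strand) measured 224, 251, 186, 228, 217 and 198 CPM in controls and 241, 342, 244, 302, 217 and 203 CPM in MMS pups. Only MMS 2 and MMS 4 exceeded the highest control. This gave a log2 fold change of 0.25 (edgeR, SE 0.12, with adjusted p = 0.552), and 0.06 without those libraries. The gene Ppp3r2 lies within Grin3a on the same strand.

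Grin2c, an NMDA subunit best known from cerebellum and glia (chromosome 11, 115249169-115267243, minus strand), had the largest log2 fold change in size of the members that passed the count filter. The value was -0.61 (SE 0.30, 95% interval -1.24 to 0.02; edgeR adjusted p = 0.556). It rested on 7 to 50 counts per library. The values were 6.03, 4.62, 3.52, 7.56, 7.71 and 6.32 CPM in controls and 3.51, 1.88, 2.42, 5.85, 3.73 and 5.80 CPM in MMS pups. In this gene MMS 2 was low and MMS 4 was not, and the log2 fold change was -0.63 without both. Of the MMS libraries 3 lay below all controls, with MMS 1 (3.51 CPM) only just below Control 3 (3.52 CPM). All 6 MMS values lay under the control median of 6.17 CPM, and the share of all genes with this order was not counted.

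Grik4 (chromosome 9, 42518135-42944493, minus strand) measured 63.9, 74.2, 68.3, 66.0, 60.8 and 67.0 CPM in controls and 65.8, 42.4, 56.0, 45.2, 64.3 and 66.7 CPM in MMS pups. MMS 2, MMS 4 and MMS 3 lay below all controls and the other MMS libraries among them. This gave a log2 fold change of -0.23 (edgeR, SE 0.12, with adjusted p = 0.564), and -0.07 without MMS 2 and MMS 4. Grid1 (chromosome 14, 34820108-35583379, plus strand) measured 65.0, 54.6, 46.6, 50.4, 55.8 and 49.9 CPM in controls and 50.8, 80.9, 72.4, 67.2, 43.3 and 62.2 CPM in MMS pups, with 3 MMS libraries above and 1 below all controls. Grid1 had a log2 fold change of 0.22 (edgeR, SE 0.14, with adjusted p = 0.612), and 0.08 without those libraries.

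The other tested members shown had edgeR adjusted p-values of 0.641 to 0.992. Among abundant members, the 95% interval of the log2 fold change was -0.09 to 0.36 for Gria2 (0.06 without MMS 2 and MMS 4), -0.27 to 0.28 for Grin2b (-0.11) and -0.16 to 0.29 for Grin1 (0.01). For Grik5 it was -0.31 to 0.23 (0.10 without both), and for Gabrq -0.25 to 0.38 (0.12). It was wider for members with fewer counts, from -0.97 to 0.63 for Gabrr1 and from -1.19 to 0.22 for Gabre (log2 fold change -0.49, and -0.23 without both). For Grik2 the sign of the value differed with and without MMS 2 and MMS 4. It measured 43.5 and 44.7 CPM in them, 24.5 to 31.6 CPM in controls and 19.7 to 25.1 CPM in the other MMS libraries, and its log2 fold change was 0.13 with them and -0.24 without. Gabrr1 was the reverse, at 1.34 and 1.24 CPM in them and 3.63 to 8.24 CPM in the other 10 libraries, with -0.17 and 0.29. MMS 2 and MMS 4 were the 2 highest libraries for 5 of the 29 tested members (Grik2, Grik3 and Grin3a among them) and the 2 lowest for 3 (Gabra3, Grik4 and Gabrr1). The share of all genes with either order was not counted. Because these 2 libraries also stood apart over all tested genes, the counts do not show a trait of the subunits.

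**Figure D5:**
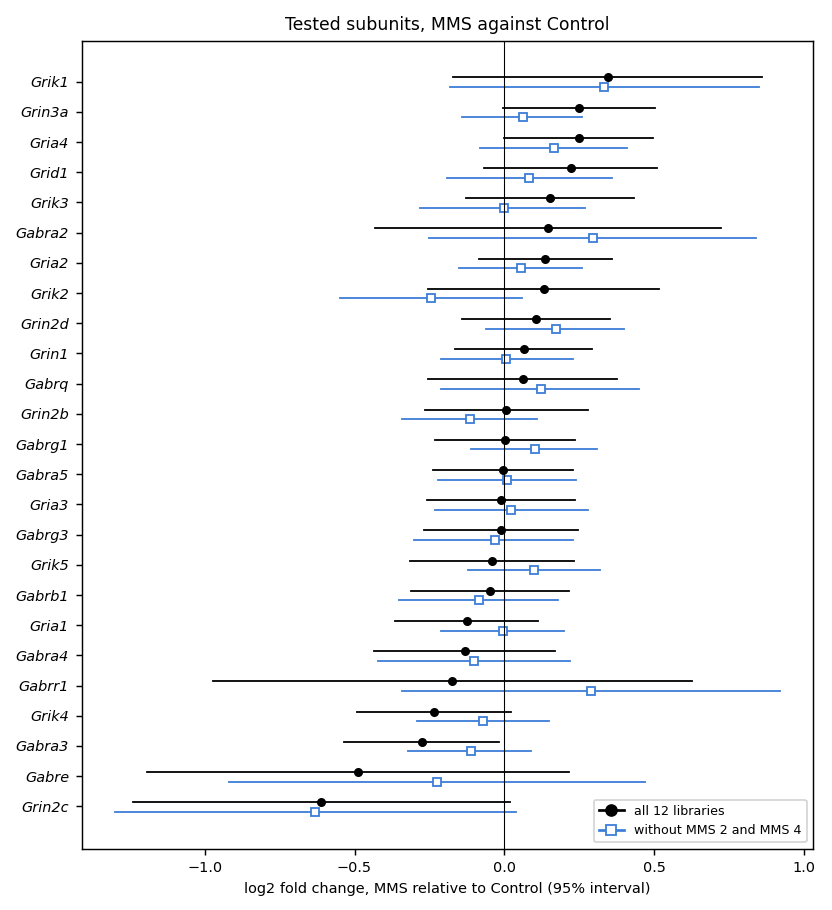
Log2 fold change of MMS relative to control with its 95% interval for the 25 tested subunits plotted, from all 12 libraries (black circles) and without MMS 2 and MMS 4 (blue open squares). The black interval of Gabra3 (-0.54 to -0.02) lies below 0, and all other black and all blue intervals shown cross 0.

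Genes that act with these receptors were taken from 6 lists with 58 genes, of which 56 passed the count filter. None was past an adjusted p of 0.05 in edgeR, and 5 had an unadjusted p under 0.05 (8.93%, against 9.08% of all genes), 4 with a higher and 1 with a lower mean in MMS pups. There were 3 without MMS 2 and MMS 4 (5.36%, against 5.03%), where 26 genes were higher and 30 lower in place of 32 and 24. Leaving out MMS 2 alone gave 3, MMS 5 alone 11 and MMS 6 alone 9, and the all-gene shares are those given above. Of 14 tested AMPA receptor auxiliary subunits and partners, 7 were higher and 7 lower, with 2 and 1 at an unadjusted p under 0.05. Cacng7, which encodes a transmembrane AMPA receptor regulatory protein, had the smallest p. Its values were 127, 124, 119, 134, 124 and 101 CPM in controls and 93.4, 81.4, 97.5, 82.3, 101 and 99.8 CPM in MMS pups, so that all 6 MMS libraries lay below all controls, as in 0.259% of all genes, with MMS 5 only just below Control 6. It had a log2 fold change of -0.39 (edgeR, SE 0.10, with adjusted p = 0.415), and -0.31 without MMS 2 and MMS 4.

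In 10 tested genes for anchoring and assembly of GABA-A receptors, 5 were higher and 5 lower. Gphn, which encodes the scaffold protein gephyrin of inhibitory synapses, had the smallest p of these (log2 fold change 0.45, SE 0.19; edgeR adjusted p = 0.543). It measured 85.7 and 84.6 CPM in MMS 2 and MMS 4 and 36.9 to 49.4 CPM in the other 10 libraries, and the log2 fold change was 0.03 without them. All 4 delta receptor ligands had log2 fold changes above 0 (3 of 4 without those libraries), with Cbln2, a cerebellin, at 0.35 (SE 0.14; edgeR adjusted p = 0.543) and 0.11 without those libraries. Of 17 glutamate synapse scaffold genes, 9 were higher and 8 lower, with Grip1 first at 0.28 (SE 0.14; edgeR adjusted p = 0.556) and 0.24 without both. Of 9 tested metabotropic receptors, 5 were higher and 4 lower, with Grm2 first at -0.32 (SE 0.19; edgeR adjusted p = 0.606) and -0.25 without both. Of the kainate receptor partners, Neto2 measured 0.31 (SE 0.18; edgeR adjusted p = 0.592) and -0.06 without MMS 2 and MMS 4.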

How the data were processed

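Hypothalamic RNA of 6 control and 6 MMS pups was measured by 3' mRNA sequencing. The authors prepared QuantSeq libraries, sequenced them on an Ion Proton and aligned reads to mm10 in Torrent Suite, and they deposited raw counts per gene, 1 column per library and unnormalised. No source used here gives the counting tool, its annotation or its handling of strand, so reads of paralogs or overlapping genes may be assigned to either. Libraries were grouped by title. Over the 30 pairs within groups, chi-square per degree of freedom was at least 4.04, so the 6 libraries of each group counted as separate samples. Pairs of a control and an MMS library were not compared in this way.

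The whole table was tested with edgeR 4.0.16 (quasi-likelihood, robust, TMM scaling, minimum count 10, minimum total 15) in R 4.3.3. P-values were two-sided, adjusted by Benjamini-Hochberg over 13104 genes, threshold 0.05. Intervals of fold changes came from the same fit. DESeq2 1.42.0, limma 3.58.1 (voom), RLE scaling, no filter, a replicate block and fits without libraries were alternatives. The fit was tested on simulated data. Coordinates are from GENCODE M21 (mm10), 1-based.

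Members and lists were chosen with earlier results of these data known. Named in full are members at an unadjusted p under 0.05, the next 5, the most abundant of each class, and the smallest p of each list. Library order per gene, including Grik2 and Gabrr1, was described after values were seen. Results of 4 members are not reported here, though counts and sums over all members include them. The count filter kept 29 of 37 members, and counting limits cover counting error only.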

Additional observations from a re-analysis of the deposited data

Results flagged for a closer look

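By Dixon's criterion, 4 of 90 sets of 6 values held a library far from the rest of its group, where chance gives about 4.5. Gabra3 was 346 CPM in Control 5, with the next control at 282 CPM. The summed GABA-A genes on chromosome X, most of them Gabra3, were 397 CPM in the same library, with the next at 329 CPM. In MMS 3, Gabra5 was 183 CPM against 145 CPM in the next library, and Gria3 was 70.3 CPM against 57.5 CPM.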

How the results depend on the processing

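No member was past an adjusted p of 0.05 in any of 6 other settings or of 12 fits with 1 library left out. The number of the 29 tested members at an unadjusted p under 0.05 (3) was 5 with RLE size factors (9.17% of all genes), 5 with no count filter (8.66%) and 0.0 without MMS 2 and MMS 4 (5.03%). It was 4 in DESeq2 (6.23%) and 2 in limma-voom (9.97%), and 1 to 7 with each library left out (5.27% to 13.6%). For the associated genes (5) it was 3 to 11 with each library left out, and 3 without MMS 2 and MMS 4. The causes were not tested.

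Without MMS 2 and MMS 4 the log2 fold change changed sign for Gabra5 (0.0098), Gabrr1 (0.29), Gria3 (0.0215), Grik2 (-0.2437), Grik3 (-0.0022), Grik5 (0.1003), Grin2b (-0.1136) and Neto2 (-0.057). The other changes of sign were in values close to 0. Gabra5 was 0.0026 in DESeq2, 0.0021 with RLE and 0.0077 with no filter. Gabrg3 was 0.0011 in limma-voom and 0.0014 with no filter, and Gria3 was 0.0006 with no filter. In limma-voom Gabrg1 was -0.0083 and Grin2b -0.0045.

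With single libraries left out the sign changed for Gabra2 (-0.0118 to 0.308), Gabra5 (-0.0761 to 0.0684), Gabrb1 (-0.0991 to 0.0468), Gabrg1 (-0.0344 to 0.0818), Gabrg3 (-0.0555 to 0.0628), Gabrq (-0.0193 to 0.132), Gabrr1 (-0.4674 to 0.0497), Gria3 (-0.0826 to 0.0523), Grik2 (-0.0109 to 0.2249), Grik5 (-0.1169 to 0.0656) and Grin2b (-0.1064 to 0.0775).

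Libraries of the 2 groups share numbers. Deviations of same-numbered libraries correlated at -0.048 to 0.116. Libraries with different numbers were not compared, so these values cannot show whether the numbers pair the pups. The main fit did not use the numbers as pairs. With the replicate block, 6 members had an unadjusted p under 0.05 (9.34% of all genes) and none an adjusted one, and Gabra5 was 0.0007, Gabrg1 -0.0016 and Grin2b -0.0092.

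Of the 8 members under the count filter, with at most 20 counts in any library, 7 had a count and were fitted with no count filter and in DESeq2. None had an adjusted p under 0.05. At an unadjusted p under 0.05 there were 3 with no count filter (8.66% of all genes) and 2 in DESeq2 (6.23%). Gabrb2 (22 counts in controls, 46 in MMS) had log2 fold changes of 1.20 (SE 0.58; edgeR adjusted p = 0.561) and 1.21 in DESeq2, and Grin2a (10 and 29 counts) 1.78 (SE 0.80; edgeR adjusted p = 0.561) and 1.90. Gabrr2 had 0 counts in controls and 7 in MMS (edgeR adjusted p = 0.509).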
